A study of Homo sapiens with 10 samples.

Results

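The 10 genes described here code for growth factors of the fibroblast growth factor (FGF) and platelet-derived growth factor (PDGF) families and for their receptors: the ligands FGF1, FGF2, FGF5, PDGFA, PDGFB and PDGFC, and the receptor tyrosine kinases FGFR1, FGFR3, FGFR4 and PDGFRB. They were taken by symbol through the Ensembl identifiers of GENCODE release 44, and all 10 were found among the 60448 genes of the count table. RNA sequencing was done on untreated, confluent cells of the human endothelial lines EA.hy926 and HMEC-1, both labelled WT, as 5 biological replicates per line. EA.hy926 is a fusion of human umbilical vein endothelial cells with A549, a lung carcinoma line, and HMEC-1 was made from dermal microvascular endothelium with the large T antigen of SV40. Each line had its own culture medium, with 5% serum for EA.hy926 and 10% for HMEC-1, and HMEC-1 alone received epidermal growth factor (10 ng/mL) together with hydrocortisone (1 µg/mL), so that line and medium cannot be told apart in any difference given here. Each line stands for 1 immortal culture, not for a vascular bed. The libraries of EA.hy926 held 34846046 to 39899324 counts (median 38651528), those of HMEC-1 33391640 to 43877224 (median 38952554).

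FGFs and PDGFs are secreted proteins that bring receptor kinases together at the cell surface, which then phosphorylate each other and recruit adaptors that switch on RAS, ERK and PI3K signalling. FGFs need heparan sulfate sugar chains to bind their receptors firmly, whereas PDGF chains work as disulfide-linked dimers, and PDGFC and PDGFD must be cut by proteases before they bind. In blood vessels FGF2 and FGF1 are growth factors for endothelial cells, and PDGFB made by endothelial cells attracts pericytes, which carry its receptor PDGFRB.

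Levels are given as CPM, the count of a gene relative to the total of its library after scaling by the trimmed mean of M values (TMM), and the lines were compared with the quasi-likelihood test of edgeR over all 16310 genes that passed a filter on low counts. The log2 fold change (log2FC) is positive where EA.hy926 was higher, its standard error is SE, and the adjusted p is that of edgeR after Benjamini-Hochberg correction over all genes tested. A gene was called past both thresholds where its adjusted p was below 0.05 and its log2FC above 1 or below -1. All 10 genes passed the filter, and 5 were past both thresholds, where 35.5% of all genes tested were. Of these, FGF1 and FGF5 were higher in EA.hy926 (19.1% of all genes tested were called in this direction) and FGFR3, FGFR4 and PDGFRB lower (16.4% were called in this direction). A further 4 genes differed by the adjusted p alone, so that 9 of the 10 met it, near the 85.8% of all genes tested that did (42.6% higher and 43.3% lower in EA.hy926), with PDGFA and PDGFB higher and FGFR1 and PDGFC lower. FGF2 did not pass. The CPM ranges of the lines did not overlap for 9 of the 10 genes, as for 77.4% of all genes tested. The median log2FC of the 10 genes was -0.10, beside -0.010 over all genes tested, and their levels summed to between 373 and 390.4 CPM in the EA.hy926 libraries, and in the HMEC-1 libraries to between 368 and 379.8 CPM.

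**Figure D1:**
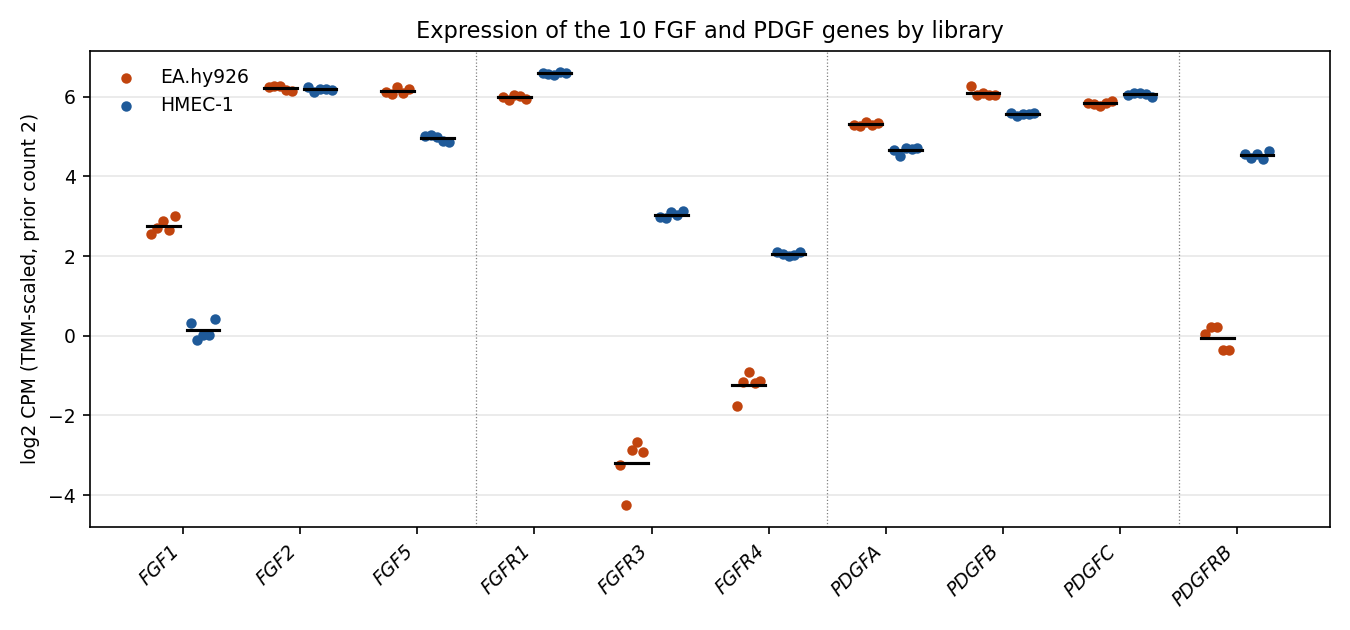
Log2 CPM of each of the 10 genes (vertical axis, TMM-scaled with a prior count of 2), with 1 point per library for the 5 EA.hy926 and 5 HMEC-1 replicates and a black line at the mean of each line. The points of the lines overlap for FGF2 only, and FGFR3, FGFR4 and PDGFRB show the widest gaps.

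Among the ligands of the FGF family, FGF1 (ENSG00000113578, chromosome 5, 142592178 to 142698070, minus strand, GRCh38), which binds all FGF receptors, was the ligand among the 10 genes with the highest log2FC. Its level was 5.76, 6.41, 7.31, 6.19 and 8.00 CPM in EA.hy926 replicates 1 to 5 and 1.20, 0.882, 0.953, 0.956 and 1.28 CPM in HMEC-1 replicates 1 to 5. Every EA.hy926 library lay above every HMEC-1 library, although the gene was weakly expressed, with 213 to 297 counts in the libraries of EA.hy926 and 36 to 49 in those of HMEC-1. The means were 6.73 ± 0.905 and 1.05 ± 0.174 CPM (SD, n = 5), and edgeR gave a log2FC of 2.68 (SE 0.13, adjusted p = 1.5e-14).

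FGF5 (ENSG00000138675, chromosome 4, 80266639 to 80336680, plus strand), a secreted FGF best known for ending the growth phase of hair, was the more abundant of the ligands called higher. EA.hy926 replicates 1 to 5 had 69.1, 67.2, 75.5, 68.3 and 73.1 CPM and HMEC-1 replicates 1 to 5 had 32.1, 33.0, 31.9, 29.7 and 29.1 CPM. The groups did not overlap, and all libraries of a line were close to each other. Mean levels were 70.6 ± 3.50 and 31.2 ± 1.65 CPM (SD, n = 5), with a log2FC of 1.18 (SE 0.040, edgeR adjusted p = 4.6e-17).

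FGF2 (ENSG00000138685, chromosome 4, 122826682 to 122898236, plus strand), the basic FGF that endothelial cells both make and respond to, had nearly the same level in both lines. Its values were 75.0, 76.4, 76.3, 71.6 and 69.9 CPM in EA.hy926 and 75.0, 68.8, 73.6, 73.4 and 72.1 CPM in HMEC-1, in replicate order. The groups overlapped over most of their range. The means of 73.8 ± 2.96 and 72.6 ± 2.36 CPM (SD, n = 5) gave a log2FC of 0.025 (SE 0.032, edgeR adjusted p = 0.473), whereas scaling by library totals alone turned it to -0.11 (edgeR adjusted p = 0.00296). NUDT6 lies over 11.8% of the exonic bases of FGF2 on the opposite strand, and whether counting used the strand is not known, so reads of these genes may be mixed.

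Of the sum of FGF1, FGF2 and FGF5, each taken as CPM per kilobase of exon, FGF2 made 45.1% and FGF5 49.2% in EA.hy926, whereas FGF2 made 66.2% and FGF5 32.5% in HMEC-1. FGF1 made 5.61% and 1.31%. FGF5 was thus slightly above FGF2 in every EA.hy926 library and well under it in HMEC-1.

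Of the 19 other FGF genes, 4 passed the filter on low counts, 3 had no count in any library, and the rest were too low to test. FGF12, FGF13 and FGF14 code for intracellular FGF homologues that bind voltage-gated sodium channels and are not secreted. All were higher in EA.hy926 past both thresholds (19.1% of all genes tested were). FGF12 and FGF13 passed the filter through EA.hy926 alone, so their direction followed from being tested. FGF14, with 4 to 12 counts per HMEC-1 library, was close to that case. FGF12 had 2.97 ± 0.220 against 0.0424 ± 0.0426 CPM (SD, n = 5; log2FC 5.96, SE 0.29, edgeR adjusted p = 2.6e-14). FGF13 had 2.92, 3.07, 3.47, 3.20 and 2.67 CPM in EA.hy926 and at most 3 counts in any HMEC-1 library (log2FC 7.05, SE 0.33, edgeR adjusted p = 1.4e-14), and without HMEC-1 replicate 5, which held most of these counts, its log2FC was 8.34. FGF14 followed with 1.32 ± 0.0759 against 0.202 ± 0.0904 CPM (log2FC 2.70, edgeR adjusted p = 7.1e-10), with 32.8% of its exonic bases shared with other genes. FGF18, a secreted ligand of FGFR3 and other receptors, was the only one of the 4 with a lower level in EA.hy926. It was lower past both thresholds (16.4% of all genes tested were), at 0.276 ± 0.0574 against 0.868 ± 0.161 CPM (log2FC -1.64, edgeR adjusted p = 1.2e-06). The EA.hy926 libraries held 7 to 13 counts of FGF18 each. FGF22, below the filter, had 1 count in all EA.hy926 libraries and 5 to 14 per HMEC-1 library. The ratio was 39.6, with an exact 95% interval of 6.74 to 1599 that covers counting error only. FGF7, also below the filter, went the other way, with 10 counts over the EA.hy926 libraries and 1 over those of HMEC-1 (ratio 11.1, interval 1.58 to 482). So did FGF20, with 16 and 3 counts (ratio 5.93, interval 1.70 to 31.7). For FGF7 and for FGF20 the ranges of the lines overlapped, and these intervals pool the libraries of a line.

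**Figure D2:**
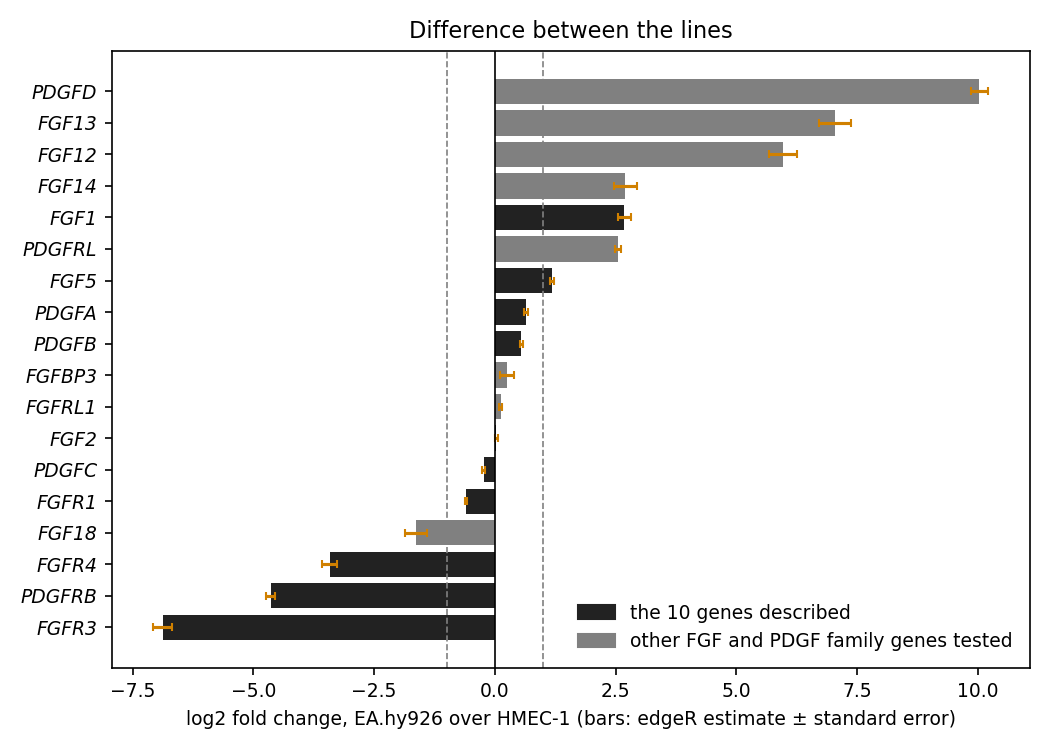
Log2FC of the FGF and PDGF family genes that were tested (horizontal axis, positive where EA.hy926 was higher), with dark bars for the 10 genes, grey bars for the others, orange error bars for the SE and dashed lines at 1 and -1. FGFR3 and PDGFRB have the lowest values and PDGFD and FGF13 the highest, and the value of PDGFD rests on 3 counts over all HMEC-1 libraries.

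The 3 FGF receptor genes among the 10 were lower in EA.hy926, by amounts that differed widely. FGFR1 (ENSG00000077782, chromosome 8, 38400215 to 38468834, minus strand), the main FGF receptor of endothelial cells, had 63.1, 60.4, 65.7, 64.2 and 61.5 CPM in EA.hy926 and 96.8, 95.2, 93.2, 97.4 and 95.8 CPM in HMEC-1. Each EA.hy926 library was below each HMEC-1 library. Mean levels of 63.0 ± 2.11 and 95.7 ± 1.65 CPM (SD, n = 5) gave a log2FC of -0.60 (SE 0.028, edgeR adjusted p = 1.6e-14), which is past the threshold on p and not that on size.

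FGFR3 (ENSG00000068078, chromosome 4, 1793293 to 1808872, plus strand), a receptor known for its restraint of bone growth, was close to absent from EA.hy926. Its counts there were 2, 0, 3, 4 and 3, or 0.0541, 0, 0.0854, 0.104 and 0.0808 CPM, and HMEC-1 replicates had 7.89, 7.67, 8.60, 8.14 and 8.66 CPM from 277 to 397 counts. The EA.hy926 libraries therefore sat near the limit of detection, since 3 counts correspond to 0.0780 to 0.0903 CPM in them, while the HMEC-1 libraries lay close together. The means differed by 126-fold (0.0649 ± 0.0404 against 8.19 ± 0.433 CPM, SD, n = 5), and edgeR gave a log2FC of -6.88 (SE 0.19, adjusted p = 8.1e-19).

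FGFR4 (ENSG00000160867, chromosome 5, 177086905 to 177098144, plus strand), which with the cofactor β-klotho serves FGF19 in the liver, was lower as well. EA.hy926 replicates had 0.243, 0.391, 0.484, 0.390 and 0.404 CPM from 9 to 17 counts, and HMEC-1 replicates 4.27, 4.09, 3.97, 4.02 and 4.21 CPM from 150 to 183 counts. No library of one line came near the range of the other. The log2FC was -3.42 (SE 0.15, edgeR adjusted p = 2.6e-15), from means of 0.383 ± 0.0868 and 4.11 ± 0.129 CPM (SD, n = 5).

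Of the summed CPM per kilobase of exon of FGFR1 to FGFR4, FGFR1 made 97.5% ± 0.535 in EA.hy926 and 68.6% ± 0.934 in HMEC-1 (SD, n = 5), while FGFR3 made 0.352% and 20.8% and FGFR4 2.11% and 10.5%. The exon length of FGFR1 differs much between its whole annotation (17201 bases) and its canonical transcript (5697 bases), and with canonical transcripts FGFR1 made 98.7% and 83.8%, FGFR3 0.133% and 9.51%, and FGFR4 1.10% and 6.64%. FGFR2 was at most 5 counts per library and too low to test. FGFRL1, a receptor without a kinase domain, had 65.2 ± 1.65 and 60.1 ± 1.68 CPM (SD, n = 5; log2FC 0.12, SE 0.029, edgeR adjusted p = 9.3e-04), and with library totals its log2FC was -0.017 (edgeR adjusted p = 0.578). Of the klotho cofactors, KL had 0 counts in all libraries, which allows up to 3 counts over each line, and KLB 0 to 12 counts per library. Of the FGF-binding proteins, which release FGFs from the matrix, FGFBP1 and FGFBP2 had no counts and FGFBP3 had 1.42 ± 0.143 and 1.19 ± 0.120 CPM (log2FC 0.25, edgeR adjusted p = 0.105).

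**Figure D3:**
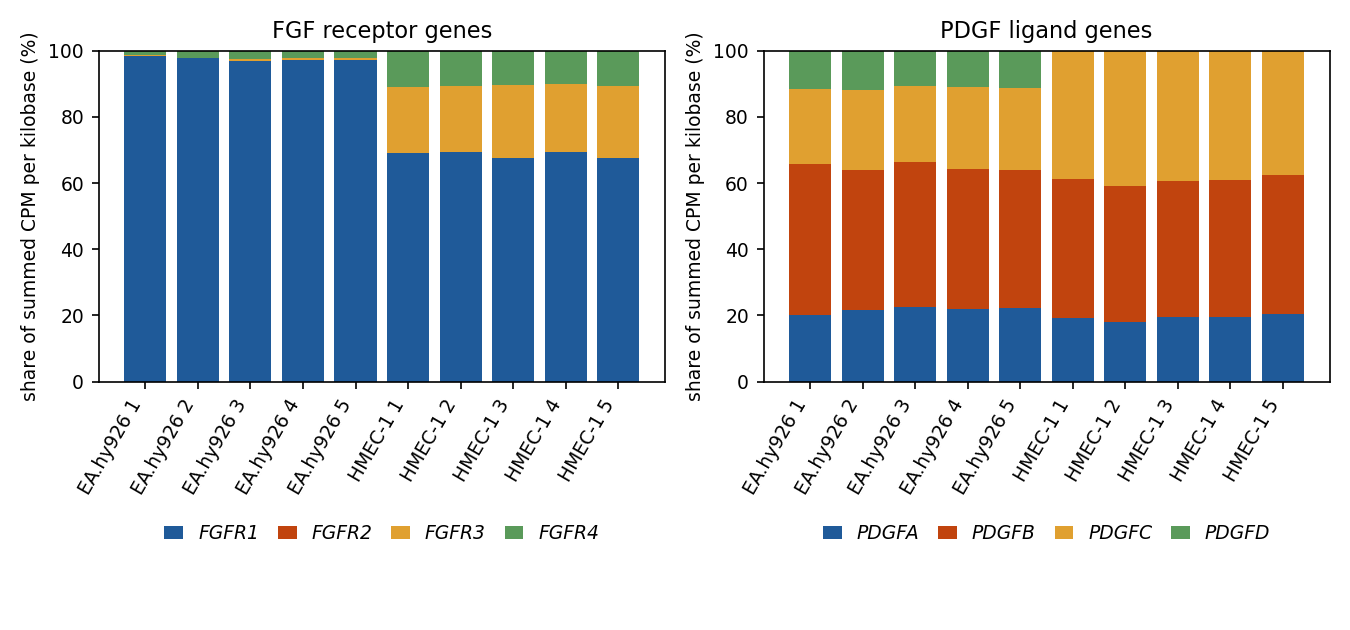
Share in percent of the summed CPM per kilobase of exon (vertical axis) that each gene takes in each library, for the receptors FGFR1 to FGFR4 on the left and the PDGF ligands on the right, with 1 stacked bar per library. FGFR1 takes nearly the whole bar in the EA.hy926 libraries, and PDGFD is visible in EA.hy926 alone.

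The 4 PDGF ligand genes code for chains that pair as dimers. PDGFA (ENSG00000197461, chromosome 7, 497258 to 520296, minus strand), whose product binds the α receptor, had 38.7, 38.4, 40.8, 39.0 and 40.7 CPM in EA.hy926 and 25.2, 22.8, 25.9, 25.6 and 26.3 CPM in HMEC-1. The groups did not overlap, at means of 39.5 ± 1.14 and 25.2 ± 1.37 CPM (SD, n = 5), and the log2FC was 0.65 (SE 0.041, edgeR adjusted p = 2.1e-12). PDGFB (ENSG00000100311, chromosome 22, 39223359 to 39244982, minus strand), the endothelial signal to pericytes, was also higher in EA.hy926, with 76.7, 66.0, 68.6, 66.2 and 66.3 CPM against 47.6, 45.4, 47.4, 47.0 and 47.7 CPM. Replicate 1 of EA.hy926 stood above its other replicates, and each of these was above every HMEC-1 library. The log2FC of PDGFB was 0.55 (SE 0.038, edgeR adjusted p = 1.6e-11), from means of 68.8 ± 4.58 and 47.0 ± 0.975 CPM (SD, n = 5).

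PDGFC (ENSG00000145431, chromosome 4, 156760454 to 156971799, minus strand), a ligand that carries a CUB domain and is made latent, was lower in EA.hy926. Its values were 56.8, 56.6, 54.5, 57.1 and 58.8 CPM in EA.hy926 and 66.1, 67.9, 68.5, 67.1 and 63.7 CPM in HMEC-1, without overlap. The means were 56.8 ± 1.53 and 66.6 ± 1.88 CPM (SD, n = 5), the smallest difference among the 9 of the 10 genes that passed on p (log2FC -0.23, SE 0.030, edgeR adjusted p = 3.2e-07).

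PDGFD, the other latent ligand, which binds PDGFRB, was outside the 10 genes and differed far more than any PDGF ligand among them. EA.hy926 had 20.5, 19.7, 17.9, 18.3 and 19.0 CPM from 628 to 757 counts, whereas all HMEC-1 libraries together held 3 counts. The ratio was 1276, with an exact 95% interval of 436 to 6193 for counting error only (edgeR adjusted p = 6.2e-22). The fitted log2FC of 10.03, which is no bound, was 10.95 without HMEC-1 replicate 2, where 2 of the 3 counts lay. Per kilobase of exon, PDGFD made 11.2% of the PDGF ligands in EA.hy926 and 0.0126% in HMEC-1, and PDGFC 23.8% and 39.2%, while PDGFB made 43.3% and 41.5% and PDGFA 21.7% and 19.3%. With canonical transcripts PDGFC, at 40.1%, was above PDGFB, at 34.7%, in HMEC-1.

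PDGFRB (ENSG00000113721, chromosome 5, 150113839 to 150155872, minus strand), the β receptor, was the receptor with the lowest adjusted p among the 10 genes. EA.hy926 replicates 1 to 5 had 0.974, 1.11, 1.11, 0.728 and 0.727 CPM from 27 to 39 counts, and HMEC-1 replicates had 23.7, 21.9, 23.7, 21.7 and 24.7 CPM from 830 to 1093 counts. HMEC-1 was thus well above the counting limit in every library and EA.hy926 low in every library. The means of 0.931 ± 0.194 and 23.1 ± 1.29 CPM (SD, n = 5) differed by 24.9-fold, and the log2FC was -4.64 (SE 0.090, edgeR adjusted p = 2.7e-21). In bulk RNA, fewer cells with a gene and less RNA per cell cannot be told apart.

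The α receptor gene PDGFRA was at 0 counts in all EA.hy926 libraries and at 2 to 7 counts in HMEC-1, at least 6.00-fold lower in EA.hy926 against a limit of 3 counts over the line, and too low to test. PDGFRL, a secreted protein that resembles the receptors and lacks a kinase, was higher in EA.hy926, at 27.6 ± 0.775 against 4.70 ± 0.441 CPM (SD, n = 5; log2FC 2.55, SE 0.058, edgeR adjusted p = 4.1e-20).

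FGFR3, FGFR4 and PDGFRB are the 3 genes among the 10 that were lower in EA.hy926 past both thresholds, so the 250 bases before the RefSeq start of each are shown, on the strand of the gene, from GRCh38.p14. Capitals mark GGGCGG, the core of the GC box, on either strand (CCGCCC on the other) and CCAAT, on either strand (ATTGG on the other). The windows are chr4:1793043-1793292 on the plus strand for FGFR3, chr5:177086665-177086914 on the plus strand for FGFR4, which has 2 RefSeq windows, and chr5:150155846-150156095 on the minus strand for PDGFRB, and the last 10 bases of the FGFR4 window and 27 bases of the PDGFRB window lie inside the GENCODE gene.
FGFR3: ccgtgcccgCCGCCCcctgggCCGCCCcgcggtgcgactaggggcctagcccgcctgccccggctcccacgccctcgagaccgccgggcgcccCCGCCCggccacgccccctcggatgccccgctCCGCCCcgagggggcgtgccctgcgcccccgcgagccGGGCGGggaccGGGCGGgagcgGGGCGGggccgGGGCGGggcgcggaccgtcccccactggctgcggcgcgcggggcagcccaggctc
FGFR4: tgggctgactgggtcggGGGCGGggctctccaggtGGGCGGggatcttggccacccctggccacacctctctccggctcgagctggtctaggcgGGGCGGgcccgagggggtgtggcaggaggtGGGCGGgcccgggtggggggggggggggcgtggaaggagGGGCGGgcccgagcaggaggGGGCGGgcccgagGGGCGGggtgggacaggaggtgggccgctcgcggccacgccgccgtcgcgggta
PDGFRB: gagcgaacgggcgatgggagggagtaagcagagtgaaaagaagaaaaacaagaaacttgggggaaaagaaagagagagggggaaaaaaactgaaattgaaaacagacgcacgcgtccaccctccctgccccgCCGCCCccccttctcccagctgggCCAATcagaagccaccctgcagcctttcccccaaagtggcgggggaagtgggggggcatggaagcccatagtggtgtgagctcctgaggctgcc
The FGFR3 window has 86.8% GC, 40 CpG and 8 matches of GGGCGG, and that of FGFR4 79.6% GC, 24 CpG and 7 matches. The PDGFRB window is at 58.4% GC, which is also the median of all 34961 RefSeq windows of this length, with 9 CpG against a median of 11, 1 match of GGGCGG and 1 CCAAT at position -94 from the start. GGGCGG occurs in 42.7% of all windows, CCAAT in 32.0% and TATAAA in 10.7%, and TATAAA was searched on both strands and not found in these 3. A match describes the letters only. Of the 10 genes, 7 had a window of this kind that was searched. Genes not lower past both thresholds also had windows rich in GC, with 75.2% and 3 matches of GGGCGG for FGF2, 68.8% and 1 match for FGF5 and 68.8% and 4 matches for PDGFA, whereas that of FGF1 has 44.8% GC and no match. The other 3 genes were not searched, as FGFR1 was left out by choice and PDGFB and PDGFC had no window in the set used.

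PDGFRB is itself used as a marker of mural cells, and markers of other cell types also differed between the lines, some in its direction and some in the opposite one. Of 9 mural cell markers, 4 were tested, 2 higher and 2 lower in EA.hy926 past both thresholds (19.1% and 16.4% of all genes tested were). CSPG4 (NG2), a proteoglycan of pericytes, had 0.206 ± 0.0551 against 67.4 ± 1.81 CPM (SD, n = 5; log2FC -8.34, edgeR adjusted p = 1.2e-26), and NOTCH3, the Notch receptor of vascular smooth muscle, 0.0777 ± 0.0768 against 13.1 ± 1.30 CPM (log2FC -7.34, edgeR adjusted p = 1.5e-18; -7.97 without EA.hy926 replicate 1). RGS5, the most abundant marker of the list in EA.hy926 though not in HMEC-1, went the other way with 429.7 ± 23.5 against 5.05 ± 0.221 CPM. So did ACTA2 with 6.26 ± 0.613 against 0.973 ± 0.174 CPM, a gene that shares 36.2% of its exonic bases with others. HIGD1B, too low to test, had 0.276 ± 0.0352 against 0.122 ± 0.0327 CPM without overlap. KCNJ8, ABCC9, DES and COX4I2 were at or near 0 in both lines, and the summed list lay between 409.8 and 468 CPM in EA.hy926 libraries and between 82.9 and 88.8 CPM in those of HMEC-1. RGS5 made nearly all of that sum in EA.hy926 and CSPG4 most of it in HMEC-1. The median log2FC of the 4 tested markers was -2.33.

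Of 6 fibroblast markers, 4 were tested, and these were lower in EA.hy926 past both thresholds (16.4% of all genes tested were), with COL1A1, the most abundant, at 0.318 ± 0.0976 against 358 ± 9.28 CPM and COL1A2 at 0.0393 ± 0.0321 against 108 ± 1.80 CPM. COL3A1 had 0.0220 ± 0.0228 against 0.935 ± 0.0850 CPM, THY1 had 1 count over all EA.hy926 libraries against 0.601 ± 0.190 CPM, and DCN and LUM were at 0 counts in all libraries. COL1A2, COL3A1 and THY1 had at most 3 counts in any EA.hy926 library and passed the filter through HMEC-1 alone. Their direction thus followed from being tested, and COL1A1 had 7 to 15 counts per EA.hy926 library. The summed list lay between 0.234 and 0.482 CPM in EA.hy926 libraries and between 451 and 478 CPM in those of HMEC-1. Whether these markers have a part in the level of PDGFRB was not tested. Among the endothelial markers, PECAM1 was at 1632 ± 157 and 254 ± 7.15 CPM and CDH5 at 1268 ± 63.0 and 441 ± 5.39 CPM. ESAM, a junction protein, had 234 ± 8.94 against 6.04 ± 0.309 CPM and ICAM2 129 ± 4.86 against 11.1 ± 0.536 CPM. Of 14 endothelial markers, 11 were higher and 2 lower in EA.hy926 by adjusted p (42.6% and 43.3% of all genes tested were), and 8 and 2 past both thresholds (19.1% and 16.4%), the lower ones being EMCN (2 counts over all EA.hy926 libraries against 18.4 ± 0.906 CPM) and CLDN5 (0.0723 ± 0.0562 against 1.45 ± 0.199 CPM). Of 8 epithelial markers 7 were tested, of which 5 were higher and 2 lower by adjusted p, which 85.8% of all genes tested met, and 3 and 2 past both thresholds (19.1% and 16.4%), with KRT8 at 546 ± 21.6 against 19.2 ± 0.947 CPM, and KRT7, the most abundant, at 622 ± 30.7 against 313 ± 19.6 CPM, whereas CDH1 had 1 count in all libraries. EPCAM (0.894 ± 0.198 against 0.245 ± 0.169 CPM) was also higher in EA.hy926, and KRT19 (0.132 ± 0.0565 against 3.56 ± 0.449 CPM) and CLDN4 (0.547 ± 0.145 against 1.47 ± 0.223 CPM) lower, all past both thresholds.

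**Figure D4:**
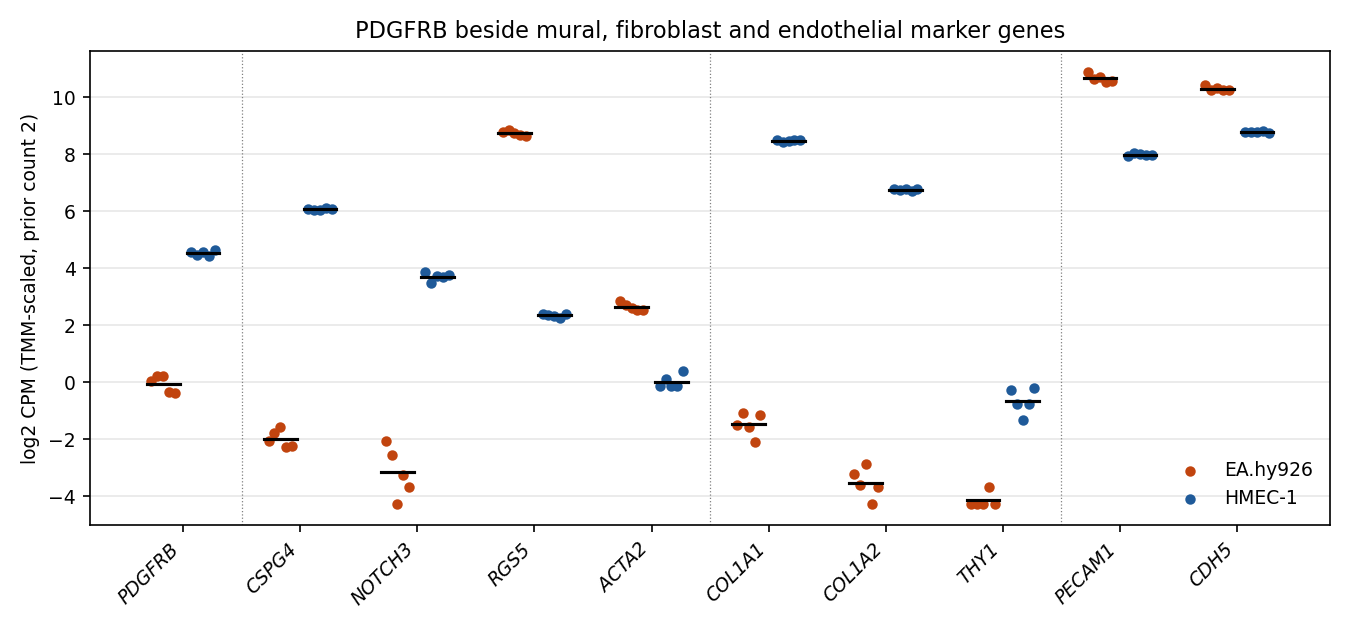
Log2 CPM (vertical axis, prior count of 2) of PDGFRB beside mural (CSPG4, NOTCH3, RGS5, ACTA2), fibroblast (COL1A1, COL1A2, THY1) and endothelial (PECAM1, CDH5) marker genes, with 1 point per library for the 5 replicates of each line and a black line at the mean. PDGFRB, CSPG4, NOTCH3 and the fibroblast genes are lower in all EA.hy926 libraries, and RGS5, ACTA2 and the endothelial genes shown are higher.

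Levels can be ordered between the 10 genes as CPM per kilobase of exon. In EA.hy926 the order was PDGFB (17.2), FGF5 (11.9), FGF2 (10.9), PDGFC (9.46), PDGFA (8.62), FGFR1 (3.66), FGF1 (1.35), PDGFRB (0.130), FGFR4 (0.0795) and FGFR3 (0.0134), and no pair of neighbours overlapped over the 5 replicates. In HMEC-1 the order was PDGFB (11.8), PDGFC (11.1), FGF2 (10.7), FGFR1 (5.56), PDGFA (5.48), FGF5 (5.23), PDGFRB (3.24), FGFR3 (1.69), FGFR4 (0.855) and FGF1 (0.212). There the ranges of PDGFB and PDGFC, of PDGFC and FGF2, of FGFR1 and PDGFA, and of PDGFA and FGF5 overlapped. With the length of the canonical transcript, FGFR1 had the highest level of the 10 genes in HMEC-1 (16.8 CPM per kilobase), so its place depends on the length used. The order in EA.hy926 changed as well, to PDGFB (18.4), PDGFA (14.4), FGF5 (13.3), PDGFC (12.4), FGF2 (11.1), FGFR1 (11.1), FGF1 (1.80), PDGFRB (0.163), FGFR4 (0.124) and FGFR3 (0.0151). With this length the EA.hy926 ranges of PDGFA and FGF5, of FGF5 and PDGFC, of FGF2 and FGFR1, and of PDGFRB and FGFR4 overlapped.

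Of 6 proteases that cut PDGF chains, 5 were tested, and 2 were higher and 3 lower in EA.hy926 by adjusted p, close to the background of 42.6% higher and 43.3% lower, and 1 was past both thresholds, which 35.5% of all genes tested passed. That gene was PLAT, the tissue plasminogen activator, which cuts latent PDGFC, with 66.2 ± 2.40 against 216 ± 3.20 CPM (SD, n = 5; log2FC -1.70, SE 0.028, edgeR adjusted p = 1.3e-22). FURIN, a convertase that cuts PDGFA and PDGFB precursors, had 382 ± 11.8 against 199.7 ± 4.46 CPM (log2FC 0.94, SE 0.026, edgeR adjusted p = 1.7e-18). The median log2FC of the list was -0.63, beside -0.010 over all genes tested, and with library totals 2 genes were past both thresholds, both lower.

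Genes of heparan sulfate, which holds FGFs and presents them to receptors, differed widely in both directions. Of 17 genes, 14 were tested, of which 8 were higher and 5 lower by adjusted p (42.6% and 43.3% of all genes tested were), and 3 higher and 4 lower past both thresholds (19.1% and 16.4%), with a median log2FC of 0.20 (0.063 with library totals, under which 7 were higher and 6 lower). The sulfatases SULF1 and SULF2, which strip 6-O-sulfates from the chains, went in opposite directions. SULF1 had 0 counts in all EA.hy926 libraries and 226, 228, 226, 223 and 244 CPM in HMEC-1, at least 13830.0-fold lower against 3 counts over the line, while SULF2 had 58.9 ± 2.35 against 8.61 ± 0.697 CPM (SD, n = 5; log2FC 2.77, edgeR adjusted p = 4.6e-22). Of the syndecans, core proteins of the cell surface, SDC2 and SDC1 also went in opposite directions, while SDC3 (92.8 ± 4.54 against 85.6 ± 0.687 CPM) and SDC4 (159 ± 5.56 against 129 ± 2.30 CPM) lay closer together. SDC2 had 0.135, 0.301, 0.199, 0.0780 and 0.0808 CPM against 149, 158, 158, 151 and 147 CPM (log2FC -9.92, SE 0.083, edgeR adjusted p = 2.9e-27), and SDC1 had 122 ± 4.88 against 20.1 ± 0.900 CPM (log2FC 2.60, edgeR adjusted p = 1.2e-23). GPC4, a glypican, had 0 counts in EA.hy926 and was at least 162-fold lower there against the same limit, GPC1 had 8.58 ± 0.655 against 37.6 ± 0.879 CPM (log2FC -2.13), and HSPG2, the perlecan of basement membranes and the most abundant gene of the list, had 2204 ± 116 against 519 ± 42.6 CPM (log2FC 2.09, edgeR adjusted p = 2.4e-20).

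Receptor adaptors were lower in EA.hy926 in 16 of 17 genes by adjusted p, beside 43.3% of all genes tested, and none of these passed the threshold on size (16.4% of all genes tested were lower past both). SHC1, the most abundant in EA.hy926 though not in HMEC-1, had 349 ± 14.5 and 383 ± 6.63 CPM (SD, n = 5; log2FC -0.13, edgeR adjusted p = 1.3e-04), with overlapping ranges. CBLB, a ubiquitin ligase that takes activated receptors out of service, was the exception, with 25.2 ± 1.76 against 4.32 ± 0.724 CPM (log2FC 2.54, SE 0.081, edgeR adjusted p = 1.5e-17). The median log2FC was -0.37, and with library totals 2 genes were lower past both thresholds. Of 10 genes of the RAS-ERK cascade, 2 were higher and 6 lower by adjusted p and none past both thresholds with edgeR, DESeq2 or limma-voom (35.5% of all genes tested passed with edgeR), with a median of -0.27, and the 8 called are near the background of 85.8%. With library totals 2 were higher and 8 lower, with a median of -0.40.

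Feedback regulators and transcriptional targets of ERK signalling were all tested, and of 17, 10 were higher and 7 lower in EA.hy926 by adjusted p (42.6% and 43.3% of all genes tested were), 7 and 4 of them past both thresholds (19.1% and 16.4%). The median log2FC was 0.85 (0.71 with library totals). ETV1, an ETS factor of the PEA3 group, had 53.3 ± 2.32 against 0.111 ± 0.0998 CPM (SD, n = 5; log2FC 8.89, SE 0.12, edgeR adjusted p = 1.1e-23), and ETV4 of the same group 28.1 ± 0.723 against 2.68 ± 0.532 CPM (log2FC 3.38). DUSP4, a phosphatase that acts on ERK, had 386 ± 20.7 against 38.5 ± 2.99 CPM (log2FC 3.33, edgeR adjusted p = 8.4e-24). It was the most abundant gene of the list in EA.hy926, though not in HMEC-1. SPRY4, a sprouty inhibitor of the pathway, had 7.71 ± 0.631 against 1.22 ± 0.221 CPM (log2FC 2.65). EGR1, an immediate early factor, went the other way, with 16.4 to 59.4 CPM in HMEC-1 (median 46.8) and 0.512 to 1.26 CPM (median 1.16) in EA.hy926 (log2FC -5.39, SE 0.32, edgeR adjusted p = 9.7e-13). HMEC-1 replicate 4 was the lowest for EGR1 and still above all EA.hy926 libraries.

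**Figure D5:**
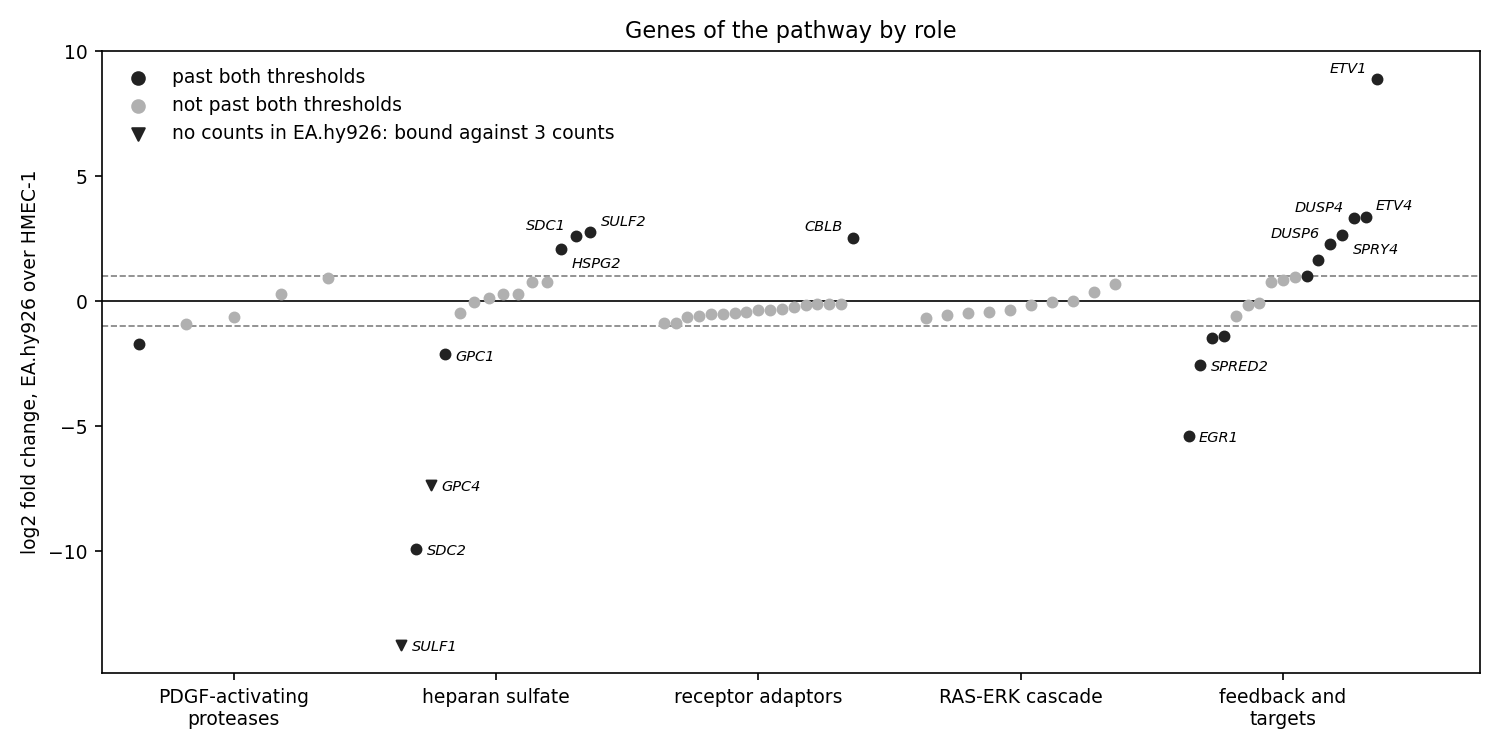
Log2FC of EA.hy926 over HMEC-1 for the tested genes of 5 lists in the pathway, with dark points past both thresholds, dashed lines at a log2FC of 1 and -1, and triangles for the bounds of genes with no counts in EA.hy926. Adaptor and RAS-ERK genes lie between the dashed lines except CBLB, whereas the heparan sulfate and feedback lists spread widely in both directions.

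Among 13025 protein-coding genes, those whose log2 CPM over the 10 libraries differed least from FGF1, the gene of the 10 with the highest log2FC, were ATG9B (root mean square difference 0.21), TAF4B (0.21) and PSCA (0.25). For FGFR3, the gene with the lowest, they were EPB41L4A (0.39), GBGT1 (0.41) and EFNB3 (0.44).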

How the data were processed

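The authors took mRNA of both lines by oligo(dT) selection, ran the libraries on an Illumina instrument and aligned the reads to GRCh38 with HISAT2. Counting was with HTSeq per the paper and with featureCounts per the submitters' processing notes, which also name fastp and DESeq2 without versions. The annotation release and strand setting are not given in the sources used here. The values the authors deposited are raw counts per gene. Symbols, coordinates and exon lengths came from GENCODE 44, which matched 56434 of 60448 identifiers, and promoter windows from RefSeq. Libraries were grouped by their labels. Replicates differed by more than sampling noise (chi-square per degree of freedom 2.90 to 7.01), so none was treated as deposited more than once.

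Low genes were left out with filterByExpr (at least 10 counts, 15 in total), and counts were scaled by TMM factors (0.943 to 0.964 in EA.hy926, 1.04 to 1.05 in HMEC-1) and tested with glmQLFTest of edgeR 4.0.16 in R 4.3.3, without covariates. On simulated counts of EA.hy926 against HMEC-1, the edgeR test called all 187 genes changed 3-fold that passed the filter, of 16035 tested, and 11 others. Far fewer genes were changed there than differ between the lines. The simulation therefore does not show how TMM scaling performs on the real contrast. Alternatives were DESeq2 1.42.0, limma-voom (limma 3.58.1), RLE factors, library totals, no filter, a filter of 10 counts in each library, a replicate block, glmTreat, 10 fits without 1 library each and, for levels, the canonical transcript length. Log2 CPM carried a prior count of 2. Intervals of ratios are exact 95% intervals. They and the limits of 3 counts cover counting error only, as reads carried no molecular identifiers.

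The 10 genes, the lists and the markers were chosen with earlier results of these data known. Named were the 10 genes, the tested genes of both families, of each further list up to 5 genes past both thresholds with the largest absolute log2FC and its most abundant gene, and the 3 protein-coding genes nearest to the highest and lowest of the 10 by root mean square difference of log2 CPM. Some genes named as the most abundant of their list were so in EA.hy926 and not in HMEC-1. GPC1, SDC3, SDC4, FGF7, FGF20, FGF22, FGFR2, FGFBP1, FGFBP2, PDGFRA, the klotho genes, CDH5, HIGD1B and the markers at or near 0 were named after their values were seen. Values of 2 genes that this choice would name are not reported here.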

Additional observations from a re-analysis of the deposited data

Results flagged for a closer look

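Of 98 groups of 5 libraries (53 genes), 8 held a library far from its 4 neighbours by Dixon's criterion, which chance meets in about 1 in 20 groups. PDGFB in EA.hy926 replicate 1 was at 76.7 CPM beside 66.0 to 68.6 in the others. The same library was high for the adaptor SHC1 (374 CPM beside 339 to 345) and the endothelial marker ESAM (249.8 CPM beside 227 to 233). In HMEC-1, replicate 1 was high for FURIN (207 CPM beside 196 to 198) and COL3A1 (1.08 CPM beside 0.883 to 0.931). SULF1 was high in replicate 5 (244 CPM beside 223 to 228), EPCAM was high in replicate 2 (0.539 CPM beside 0.105 to 0.217), and CLDN5 was low in replicate 3 (1.11 CPM beside 1.46 to 1.59). Without EA.hy926 replicate 1, and without each of the other libraries in turn, PDGFB kept a log2FC of 0.51 to 0.57.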

How the results depend on the processing

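Genes past both thresholds numbered 5784, 3110 higher and 2674 lower in EA.hy926. DESeq2 called 5786, limma-voom 5802, RLE factors 5783 and glmTreat 5021, and without 1 library each 5945 to 6000 passed. The filter moved the count most, to 9312 of 33071 genes without it and to 3255 with at least 10 counts in every library. Under that last filter 3 of the 10 genes passed, since FGFR3 and FGFR4 were no longer tested. Library totals shifted the median log2FC by -0.13 and gave 2809 higher and 3085 lower genes. FGF2 turned to -0.11 with library totals and to -0.0094 without HMEC-1 replicate 2 (edgeR adjusted p = 0.784; -0.0094 to 0.050 over all fits without 1 library), and FGFRL1 to -0.017 with library totals. In every fit without 1 library, 5 of the 10 genes passed. A replicate block gave 5786 genes and 5 of the 10. Libraries with the same number correlated at -0.023 to 0.039 after removal of the line means, so they shared little variation. Of the 5 numbers, 2 matched best both ways, which does not settle whether samples were paired, and the main fit used no pairing. Of the refitted values of the 10 genes, 172 kept direction and side of the threshold, 4 did not pass glmTreat (FGFR1, PDGFA, PDGFB and PDGFC), and 2 reversed, both of FGF2. As glmTreat asks for a log2FC past 1 or -1, which these 4 genes did not reach in the main fit, this is no change with processing. Counts of FGFR3 and FGFR4 in EA.hy926 limit the precision of their fold changes, with -7.10 to -6.59 for FGFR3 without 1 library each.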
